A study of Mus musculus with 6 samples.

Results

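Oxidative phosphorylation genes were compared between CD4+ T cells kept with icilin and CD4+ T cells kept with its solvent. The genes were chosen by name: nuclear genes whose symbols begin with Nduf, Uqcr, Atp5 or Cox4 to Cox8, the 4 Sdh subunit genes, and Cyc1 and Cycs. Each had to lie on a probe set (the group of array probes that is summarised into 1 value) with a single gene symbol. Atp5s and pseudogenes were left out, which gave 89 protein-coding genes of the 22180 genes tested. By complex, 6 were core and 26 accessory subunits of complex I, 8 were its assembly factors, 4 belonged to complex II, 8 to complex III, 19 to complex IV and 17 to complex V, and Cycs encodes cytochrome c. The 8 assembly factors, Ndufaf1 to Ndufaf8, share the name of the subunits but are not part of the finished enzyme, so they were described apart from the 81 subunit and cytochrome c genes. Ndufa4, named for complex I, was counted with complex IV, where its product is found. A further 8 gene names met the rule only on probe sets with several symbols and were not analysed here: Cox6c, Ndufb2, Ndufb4, Ndufb4b, Ndufb4c, Ndufs6, Ndufs6b and Uqcr10.

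The cells came from the spleens of wild-type C57BL/6 female mice of about 8 weeks. All cells of both groups were first stimulated for 24 h with antibodies against CD3 and CD28, each at 10 µg/mL, which give the antigen receptor signal and costimulation. They were then kept for 24 h with 100 µM icilin, a man-made agonist of the cold-sensing channel TRPM8 and of TRPA1, or with the vehicle dimethyl sulfoxide. Each group held 3 arrays, and both groups were drawn from the same 3 mice, so the p-values measure the spread between these samples. Values are log2 levels on an expression array, and a difference is icilin minus vehicle on that scale. There was no unstimulated group, so every level is that of activated cells.

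Oxidative phosphorylation makes ATP in the inner membrane of mitochondria. Complex I takes electrons from NADH and complex II from succinate; both pass them through ubiquinone to complex III, from there cytochrome c carries them to complex IV, and complex IV hands them to oxygen. Complexes I, III and IV pump protons, and complex V, the ATP synthase, lets them flow back to make ATP. Most subunits are encoded in the nucleus and a few in mitochondrial DNA. T cells raise both glycolysis and respiration when they are activated, and memory cells are known for their reserve of respiratory capacity.

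The arrays carried the labels' cell type. All 8 measured T cell markers of the 10 listed were brighter than the median gene, and Cd4 stood at a mean of 11.06 with icilin and 11.04 with vehicle. Among the markers of other cells, 5 B cell markers were measured, 3 of them brighter than the median gene. Their summed log2 level was 7.32 to 7.40 with icilin and 7.10 to 7.18 with vehicle. Ms4a1 was called higher (1.01), Pax5 and Cd22 each differed by 0.21, Cd79a by 0.09 and Cd79b by -0.01. The summed level of the 7 myeloid markers was 6.54 to 6.61 against 6.35 to 6.49, with none of the 7 brighter than the median gene. Mpeg1 was called higher (0.75), while Csf1r (-0.26) was 1 of 2 below 0. The 4 dendritic cell markers gave 5.78 to 5.95 against 5.88 to 6.03, the 3 NK cell markers 4.98 to 5.05 against 5.15 to 5.30, the 2 CD8 markers 6.85 to 7.28 against 6.67 to 6.82, and the 3 measured red cell and platelet markers 5.33 to 5.50 against 5.51 to 5.63. Of the CD8 markers, Cd8b1 was brighter than the median gene, at a mean of 6.86 with icilin and 6.47 with vehicle. It differed by 0.39 (limma adjusted p = 0.167), and Cd8a by 0.01. The part of other cells in the results was not tested.

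With icilin, most genes of the respiratory chain lay close to their vehicle levels. Of the 89 genes, 2 were called by the limits of the study (1.5-fold, with a limma adjusted p below 0.1): Ndufv3, an accessory subunit of complex I, fell, and Cox6a2, a complex IV isoform typical of heart and skeletal muscle, rose. That is 2.25% of the members, beside 1.40% of all genes tested; in each direction it is 1.12%, beside 0.370% of all genes called higher and 1.03% called lower. The median log2 difference was 0.00 over the members and 0.01 over all genes, and 47 members (52.8%) lay above 0, beside 53.0% of all genes. A change under 1.2-fold in either direction was measured for 85 members (95.5%), beside 87.7% of all genes. The other 4 were Ndufv3, Cox6a2 and the assembly factors Ndufaf4 and Ndufaf2. These counts take the brightest probe set of each gene. Second probe sets changed by more than 1.2-fold for Atp5d (-0.62), Cox7b (-0.37) and Ndufa8 (-0.28). Most members were bright, with 83 of the 89 above the median gene, and shares over genes of like brightness were not counted.

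The arrays could bound these differences. The 95% confidence interval of the difference lay wholly within 1.5-fold either way for 86 members (96.6%), beside 89.2% of all genes. The exceptions were Ndufv3, Cox6a2 and Atp5j2, a membrane subunit of the ATP synthase. This count takes the brightest probe set of each gene. Atp5d lay within the limit by that probe set only, as a second of almost the same brightness had an interval of -1.16 to -0.08. Dimmer second probe sets of Ndufa8 (-0.60 to 0.04), Cox7b (-1.12 to 0.39) and Cox5b (-0.21 to 0.60) also had intervals that reached past the limit. The median half-width of a member's interval was 0.18 on the log2 scale, from 0.14 to 0.40. Over all genes the median half-width was 0.21, and the shares given here are not matched for brightness. Without a fold limit, 3 members passed an adjusted p under 0.1, Ndufaf4 in addition (3.37%, beside 5.28% of all genes). Of these, 2 were higher and 1 lower, beside 2.27% and 3.00% of all genes. An unadjusted p under 0.05 was found for 10 members (11.2%, beside 17.1%), 6 of them higher (6.74%, beside 9.09%) and 4 lower (4.49%, beside 8.05%). The icilin and vehicle arrays did not overlap in 28 members, 16 higher and 12 lower with icilin (31.5%, beside 24.1% of all genes; 18.0% and 13.5%, beside 13.6% and 10.5%, by direction). In bulk RNA, fewer cells of a type and less RNA per cell cannot be told apart, and the normalization of the arrays would hide a change common to most genes.

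**Figure D1:**
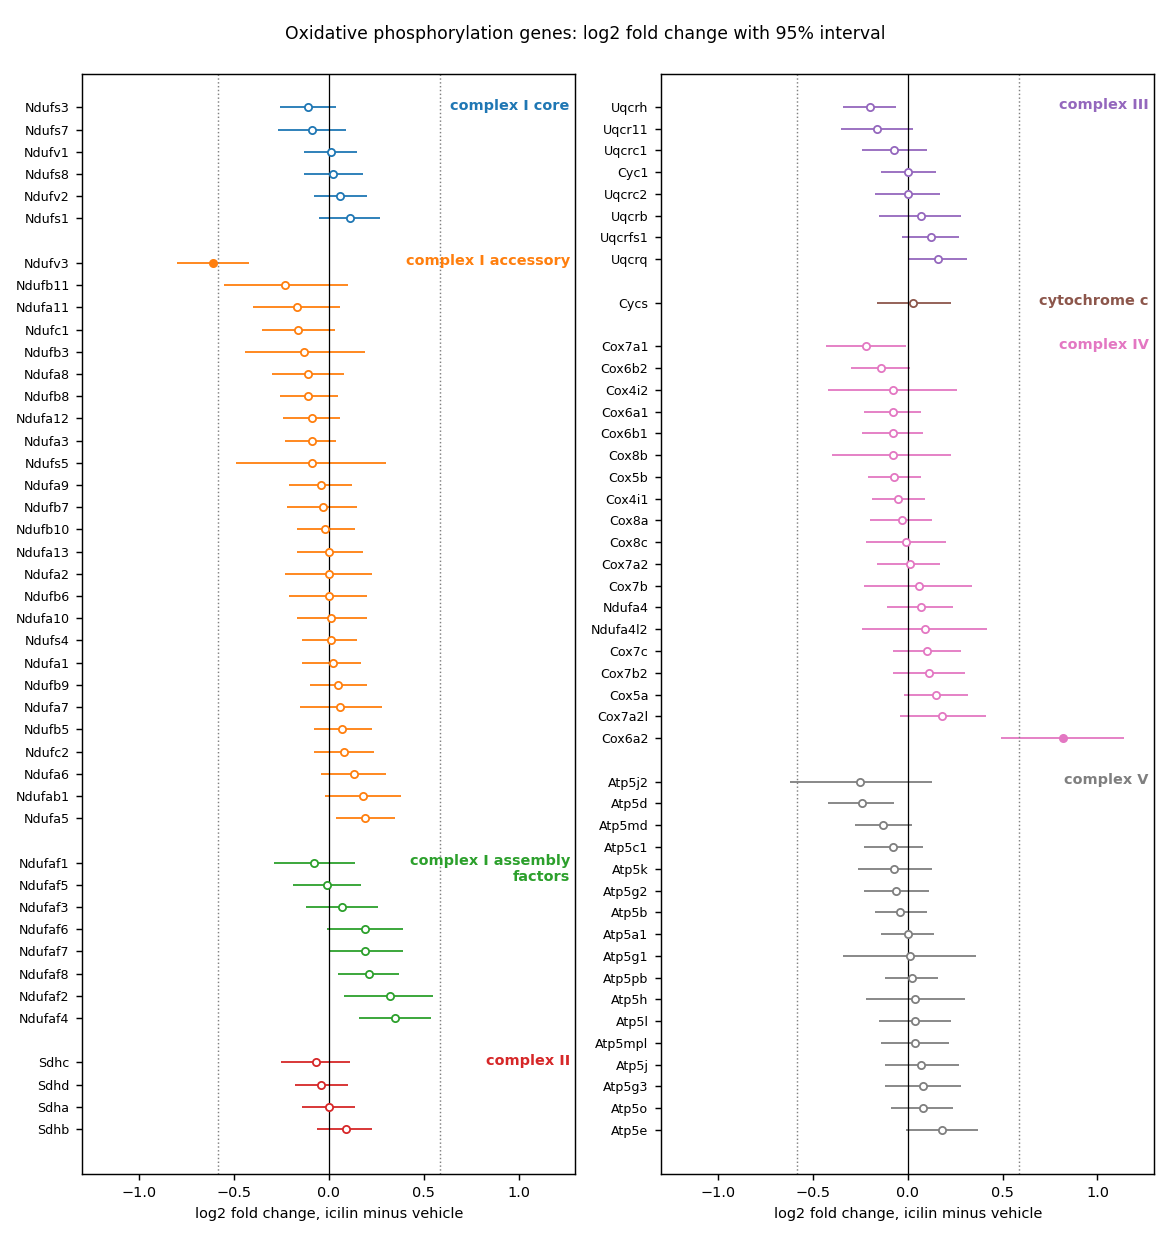
Log2 difference, icilin minus vehicle, with its 95% interval for each of the 89 genes, grouped by complex; filled points passed an adjusted p under 0.1 and 1.5-fold, and dotted lines mark 1.5-fold. Ndufv3 at -0.61 and Cox6a2 at 0.82 stand outside the column of intervals around 0. Of the 8 complex I assembly factors, 6 points lie above 0, and the intervals of 3 of them exclude 0.

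The core subunits of complex I carry its flavin and iron-sulfur centres. None of the 6 measured passed the adjusted p, and the median difference was 0.02. Ndufs1, the largest core subunit, read 8.35, 8.30 and 8.28 in the icilin arrays and 8.26, 8.22 and 8.11 in the vehicle arrays, a difference of 0.11 ± 0.07 (SE; limma adjusted p = 0.469). The icilin arrays lay just above the vehicle arrays, and the interval of the difference, -0.05 to 0.27, included 0. Ndufs3 went the other way, with 5.97, 5.87 and 5.99 against 6.08, 6.04 and 6.04 (-0.11 ± 0.06, limma adjusted p = 0.449). Ndufs7, which carries an iron-sulfur centre near the ubiquinone site, differed by -0.09 (interval -0.27 to 0.09). Ndufv1, the flavin subunit that accepts electrons from NADH, differed by 0.01 (interval -0.13 to 0.15), and Ndufv2, beside it in the same module, by 0.06.

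Ndufv3 encodes a small accessory subunit on the NADH-oxidising arm of complex I. It read 7.71, 7.80 and 7.78 in the icilin arrays and 8.24, 8.42 and 8.45 in the vehicle arrays. All icilin values were low, and the groups were separated by more than the range within either. The difference was -0.61 ± 0.08 (SE; 95% interval -0.80 to -0.42; limma adjusted p = 0.0104), so the vehicle level was 1.52-fold the icilin level, just past the 1.5-fold limit. Leaving out icilin array 1 or vehicle array 2 (each -0.58) or vehicle array 3 (-0.57) brought the fold under that limit and ended the call, while the adjusted p stayed under 0.1 (0.0479 to 0.0555). The next genes on either side of Ndufv3, Wdr4 and Pknox1, differed by -0.06 and 0.01. Its partners in the NADH-oxidising arm, Ndufv1 and Ndufv2, are those given above, both within 0.06 of 0.

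The promoter of Ndufv3 is shown because this gene had the lowest difference of all 89. Its RefSeq window (build GRCm38.p6, chr17:31519865-31520144, plus strand) runs from 250 bases before the annotated transcript start to the first 30 bases of the transcript. In this window and the others printed, capitals mark letters searched for 3 factors known to bind promoters of respiratory genes: GCGCA and GCGC with any 1 base between them for NRF1, CCGGAAG for ETS factors such as GABP, and AAGATGGC for YY1.
Ndufv3: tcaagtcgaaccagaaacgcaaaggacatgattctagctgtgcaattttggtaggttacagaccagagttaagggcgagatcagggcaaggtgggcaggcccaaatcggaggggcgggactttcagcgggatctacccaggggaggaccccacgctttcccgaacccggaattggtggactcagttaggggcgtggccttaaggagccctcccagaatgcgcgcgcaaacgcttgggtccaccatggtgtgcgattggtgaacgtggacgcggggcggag
None of these letters occurred in it. The core letters of a hypoxia response element, ACGTG, were present once, 11 bases past the start. A match is a description of letters and not of binding.

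Of the other 25 accessory subunits of complex I, none passed the adjusted p, and the median over all 26 was -0.01. The member highest with icilin was Ndufa5, with 6.76, 6.80 and 6.84 against 6.67, 6.61 and 6.54. These groups did not overlap, and the difference was 0.19 ± 0.07 (limma adjusted p = 0.205). Ndufb9 read 10.68, 10.73 and 10.80 against 10.70, 10.71 and 10.65, a difference of 0.05 within the spread. Ndufab1, the mitochondrial acyl carrier protein and also a subunit of complex I, differed by 0.18 (interval -0.02 to 0.38). In all, 12 of the 26 lay above 0 (46.2%, beside 53.0% of all genes), and the groups did not overlap in 6 (23.1%, beside 24.1%).

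The assembly factors of complex I build the enzyme and then leave it. Their median difference was 0.19, whereas it was 0.00 over the 32 subunits. In 5 of the 8 (62.5%) the icilin arrays lay entirely above the vehicle arrays, beside 13.6% of all genes, and in none entirely below. The difference of these 2 medians was not tested, and no assembly factor reached 1.5-fold. The median over the 8 factors, set against each factor's vehicle mean, was 0.13, 0.12 and 0.22 in the icilin arrays and 0.05, 0.02 and -0.07 in the vehicle arrays. It stayed between 0.14 and 0.21 when any 1 array was left out.

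Ndufaf4, which takes part in the early assembly of complex I, had the smallest p of the group. It read 7.52, 7.63 and 7.61 with icilin and 7.28, 7.32 and 7.10 with vehicle, so every icilin value was above every vehicle value. The difference was 0.35 ± 0.08 (SE; 95% interval 0.16 to 0.54; limma adjusted p = 0.0727), a 1.28-fold higher level. Leaving out any 1 of the 6 arrays ended the adjusted p under 0.1 (0.125 to 0.208), with the difference between 0.29 and 0.40.

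The other members with separated groups were named after their values were seen. Ndufaf2, an assembly chaperone that resembles a subunit of the finished enzyme, read 5.59, 5.27 and 5.58 against 5.18, 5.21 and 5.11. Its difference of 0.32 ± 0.10 did not pass (limma adjusted p = 0.173; 0.0693 without icilin array 2, which was the lowest of the 3). Ndufaf8 read 6.71, 6.59 and 6.64 against 6.50, 6.44 and 6.38 (0.21 ± 0.07, limma adjusted p = 0.185). Ndufaf7, a mitochondrial methyltransferase, and Ndufaf6 each differed by 0.19 (limma adjusted p = 0.298 and 0.322).

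The remaining 3 factors overlapped between the groups. Ndufaf3, the partner of Ndufaf4, differed by 0.07 and Ndufaf5 by -0.01. Ndufaf1, which acts on the membrane arm, read 7.65, 7.43 and 7.45 against 7.69, 7.59 and 7.48, a difference of -0.08 ± 0.09 (limma adjusted p = 0.732). So the partners Ndufaf3 and Ndufaf4 did not show the same separation of arrays, and the difference between them was not tested.

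**Figure D2:**
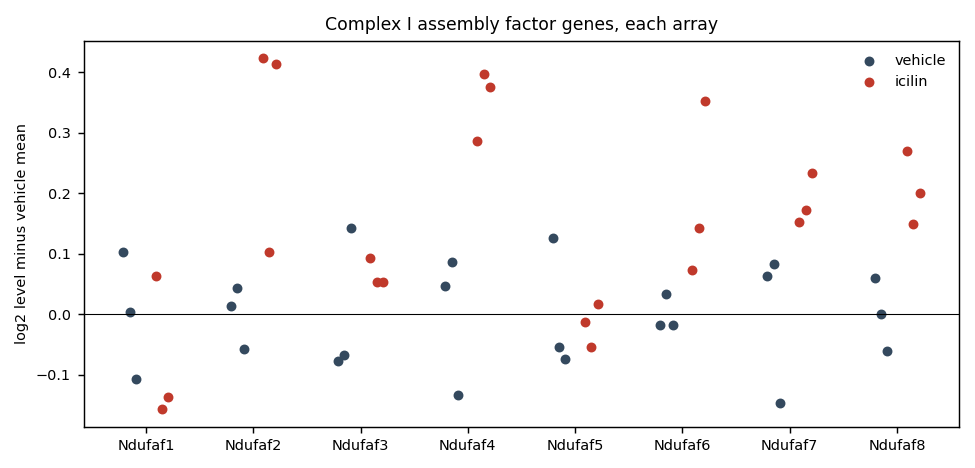
Log2 level of the 8 complex I assembly factor genes on each array, less the gene's vehicle mean; each point is 1 array. For Ndufaf2, Ndufaf4, Ndufaf6, Ndufaf7 and Ndufaf8 all 3 icilin points lie above all 3 vehicle points, and for Ndufaf1, Ndufaf3 and Ndufaf5 the groups overlap.

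The promoters of Ndufaf4 (chr4:24897833-24898112, plus strand) and Ndufaf8 (chr11:120098684-120098963, plus strand), 2 of the 5 assembly factors with separated arrays, are printed because they hold the letters of respiratory gene factors that the Ndufv3 window lacks, with capitals as above.
Ndufaf4: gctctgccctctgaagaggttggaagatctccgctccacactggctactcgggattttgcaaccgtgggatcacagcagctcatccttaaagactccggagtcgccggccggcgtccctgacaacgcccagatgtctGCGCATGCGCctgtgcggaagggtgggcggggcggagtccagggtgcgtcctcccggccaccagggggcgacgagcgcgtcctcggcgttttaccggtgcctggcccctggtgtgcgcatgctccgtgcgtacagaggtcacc
Ndufaf8: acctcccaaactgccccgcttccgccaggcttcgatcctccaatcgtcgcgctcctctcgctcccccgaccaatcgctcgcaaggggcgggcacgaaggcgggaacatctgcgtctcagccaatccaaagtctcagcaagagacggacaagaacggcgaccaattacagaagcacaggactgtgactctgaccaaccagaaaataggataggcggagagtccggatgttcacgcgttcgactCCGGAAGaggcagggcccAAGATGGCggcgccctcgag
In Ndufaf4 the NRF1 letters began at -113 from the start. In Ndufaf8 the ETS letters began at -8 and the YY1 letters at 10 from it. Of the 7 assembly factors with a window, 4 held at least 1 of the 3 motifs: Ndufaf4 and Ndufaf8, whose arrays were separated, and Ndufaf1 and Ndufaf5, whose arrays overlapped. The windows of Ndufaf2 and Ndufaf7, also separated, and of Ndufaf3, which overlapped, held none of them. A link between these letters and the differences was not tested.

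RefSeq windows of 300 bases were found for 73 of the 89 genes, 78 windows in all. On either strand, 18 of them (23.1%) held the NRF1 letters, beside 4.60% of 32851 windows of all genes and 10.2% of the windows of genes brighter than the median gene. The ETS letters were in 24.4%, beside 8.86% and 18.1%. The YY1 letters were in 12.8%, beside 2.75% and 4.56%. The ETS letters end and the YY1 letters begin with AAG, so 1 stretch can count for both. At least 1 of the 3 motifs was in 41 of the 78 windows, a combined share that was not counted over the windows of all genes. The hypoxia letters ACGTG were in 25.6%, beside 19.6% and 25.9%, the TATA box letters TATAAA in 11.5%, beside 13.6% and 6.98%, and the amino acid response element letters TGATGNAA in none, beside 3.97% and 2.35%. These shares describe letters in annotated windows and say nothing of which factors were active in these cells.

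Complex II, succinate dehydrogenase, is also an enzyme of the citrate cycle and is encoded wholly in the nucleus. Its 4 genes did not pass the adjusted p, with a median of -0.02. Sdha, the flavoprotein, read 10.11, 10.13 and 10.12 with icilin and 10.15, 10.09 and 10.12 with vehicle. The difference was 0.00 with an interval of -0.14 to 0.14, and the groups overlapped fully. Sdhb, the iron-sulfur subunit, was the 1 of the 4 whose arrays separated, a share near the 24.1% of all genes, at 8.86, 8.82 and 8.82 against 8.78, 8.75 and 8.70 (0.09 ± 0.06, limma adjusted p = 0.535). The membrane anchors Sdhc and Sdhd differed by -0.07 and -0.04.

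Complex III, the cytochrome bc1 complex, had a median of 0.00 over 8 genes, 4 above 0. The smallest p belonged to Uqcrh, the hinge protein next to cytochrome c1, at 7.98, 7.94 and 8.01 with icilin and 8.19, 8.19 and 8.15 with vehicle. The groups did not overlap and each was tight, and the difference was -0.20 ± 0.06 (SE; interval -0.34 to -0.06; limma adjusted p = 0.152). Uqcrq, a small membrane subunit, read 5.81, 5.68 and 5.71 against 5.55, 5.60 and 5.57 (0.16 ± 0.07, limma adjusted p = 0.282). The catalytic subunits lay between these: cytochrome c1, encoded by Cyc1, differed by 0.00 (interval -0.14 to 0.15), and the Rieske iron-sulfur protein Uqcrfs1 by 0.12 (interval -0.03 to 0.27). Uqcrb read 11.14, 11.23 and 11.13 against 10.95, 11.25 and 11.11, overlapping.

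Cycs encodes cytochrome c, which carries electrons to complex IV and triggers the apoptosome when it leaves the mitochondrion. Its brightest probe set read 10.93, 10.91 and 10.78 with icilin and 10.86, 10.94 and 10.71 with vehicle, a difference of 0.03 (interval -0.16 to 0.23). The 5 probe sets of the gene, 2 of which held identical values, gave differences from 0.00 to 0.09.

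Complex IV, cytochrome c oxidase, is the only complex of the chain with a large set of tissue-restricted isoforms of its nuclear subunits. The 19 genes had a median of -0.01, with 9 above 0. The groups did not overlap in 7 (36.8%, beside 24.1% of all genes), 3 higher and 4 lower with icilin. Among the ubiquitous subunits, Cox4i1 differed by -0.05 (interval -0.19 to 0.09) and Cox5b by -0.07 (interval -0.21 to 0.07), both with every icilin array below every vehicle array. Cox8a, whose groups overlapped, differed by -0.03. Cox5a read 9.81, 9.71 and 9.79 against 9.70, 9.64 and 9.53, separated between groups, with a difference of 0.15 ± 0.07 (limma adjusted p = 0.365). Ndufa4 differed by 0.07 (interval -0.11 to 0.24).

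Cox6a2 was the member that rose, from a dim level: its vehicle mean, 4.39, was below the 4.57 of the median gene, and its icilin mean was 5.20. It read 5.33, 5.06 and 5.22 with icilin and 4.09, 4.54 and 4.54 with vehicle, so the lowest icilin array stood above the highest vehicle array. The difference was 0.82 ± 0.14 (SE; 95% interval 0.49 to 1.14; limma adjusted p = 0.0281), a 1.76-fold higher level. Vehicle array 1 was the lowest, and without it the difference was 0.66 (limma adjusted p = 0.0386), still called. Without icilin array 1 it was 0.75 and the call was lost (limma adjusted p = 0.106).

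The ubiquitous partner of Cox6a2, Cox6a1, was not called. It read 11.97, 11.93 and 12.01 with icilin and 12.09, 12.05 and 12.01 with vehicle, a difference of -0.08 (interval -0.23 to 0.07). The neighbouring genes Itgad and Itgax differed by -0.22 and 0.06. Itgax is also a dendritic cell marker, and the 4 dendritic cell markers had a median difference of -0.09 with none called. In the B cell list Ms4a1 was called higher (1.01), with a list median of 0.21 and 1 of 5 markers below 0. In the myeloid list Mpeg1 was called higher (0.75), with a list median of 0.07 and 2 of 7 below 0. The CD8 markers Cd8b1 and Cd8a differed by 0.39 and 0.01, neither called. Whether other cells gave part of the Cox6a2 signal was not tested.

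The other tissue-restricted isoforms did not pass the test. Cox7a1, the heart and muscle form, read 4.85, 4.62 and 4.67 with icilin and 4.93, 5.03 and 4.84 with vehicle (-0.22 ± 0.09, limma adjusted p = 0.267), while its partner Cox7a2 differed by 0.01. Cox6b2, the testis form, differed by -0.14 and its partner Cox6b1 by -0.08. Cox4i2, a form known for its induction by low oxygen in lung, differed by -0.08 with a wide interval of -0.42 to 0.26. Cox8b and Cox8c differed by -0.08 and -0.01. Ndufa4l2, a hypoxia-induced relative of Ndufa4, read 3.89, 3.51 and 3.42 against 3.42, 3.69 and 3.43, overlapping (0.09 ± 0.14). Of the 8 tissue-restricted isoforms, 4 were brighter over all 6 arrays than the median gene (4.57), Cox6a2 among them only through its icilin arrays. A change of the dim ones could be missed.

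Cox7a2l, counted here with complex IV, was named after its values were seen. It read 7.35, 7.57 and 7.40 with icilin and 7.33, 7.11 and 7.33 with vehicle. The groups were separate by a narrow gap, and the difference was 0.18 ± 0.09 (limma adjusted p = 0.385).

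**Figure D3:**
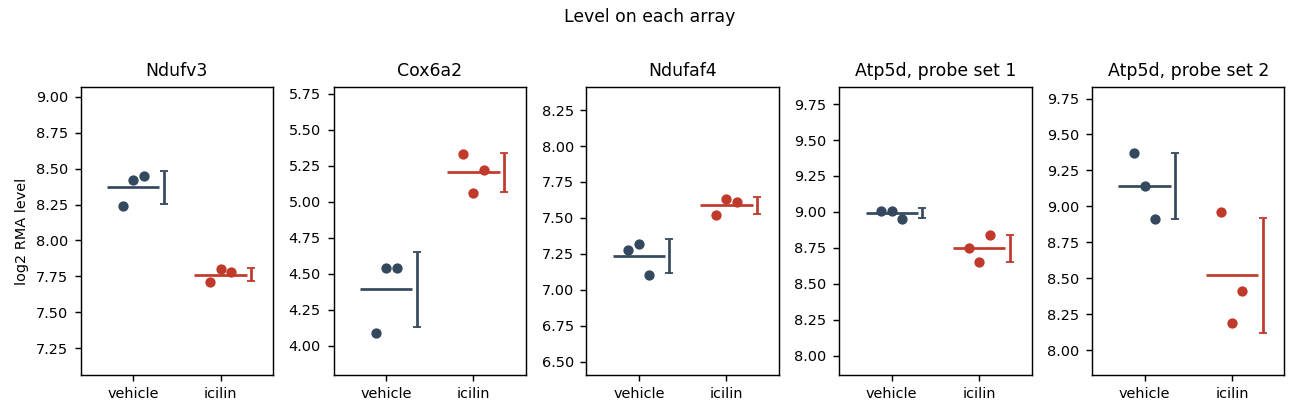
Log2 level on each array (points) with the mean (line) and SD (bar) of 3 arrays for Ndufv3, Cox6a2, Ndufaf4 and both probe sets of Atp5d; each panel has its own range and spans 2 log2 units. The icilin and vehicle arrays are apart in every panel but the last, in which the highest icilin point, 8.96, lies above the lowest vehicle point, 8.91.

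Complex V, the ATP synthase, had a median of 0.01 over 17 genes, 10 above 0, and none passed the adjusted p. Atp5a1 and Atp5b encode the subunits of its catalytic head. Atp5b read 11.93, 11.87 and 11.89 with icilin and 11.94, 11.94 and 11.92 with vehicle (-0.04, interval -0.17 to 0.10), and Atp5a1 differed by 0.00 (interval -0.14 to 0.14). The 3 genes Atp5g1, Atp5g2 and Atp5g3 encode the same mature subunit c of the membrane ring, and they differed by 0.01, -0.06 and 0.08. Atp5g1 had the widest interval of the 3, -0.34 to 0.36, with arrays from 5.19 to 5.67.

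Atp5d, the delta subunit of the rotor stalk, had the smallest p of complex V. Its brightest probe set read 8.75, 8.65 and 8.84 with icilin and 9.01, 9.01 and 8.95 with vehicle. The groups did not overlap, and the difference was -0.24 ± 0.07 (SE; interval -0.42 to -0.07; limma adjusted p = 0.149). A second probe set of almost the same brightness read 8.96, 8.19 and 8.41 against 9.37, 9.14 and 8.91. It was lower with icilin too but scattered, at -0.62 ± 0.22, and did not pass (limma adjusted p over all probe sets = 0.353). Both probe sets were lower with icilin but differed in size. The interval of the second, -1.16 to -0.08, held the value of the first, while that of the first did not hold -0.62. The next genes on either side, Cbarp and Midn, differed by -0.26 ± 0.09 and -0.20 ± 0.07 (limma adjusted p = 0.214 and 0.192).

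At the other ends of complex V, Atp5j2 read 4.52, 4.39 and 4.36 against 4.34, 4.68 and 4.99, overlapping, with an interval of -0.62 to 0.13 that reached past 1.5-fold lower. Atp5e, the epsilon subunit next to Atp5d in the rotor stalk, differed by 0.18 ± 0.08 (limma adjusted p = 0.327). It was higher on all 3 icilin arrays than on any vehicle array, at 8.29, 8.28 and 8.23 against 7.95, 8.10 and 8.21. Its dimmer probe set differed by 0.01.

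More than 1 probe set was present for 10 members. Their differences lay within 0.18 of each other in 7 of the 10. The exceptions were Atp5d, Cox7b (0.06 and -0.37) and Cox5b (-0.07 and 0.19). For Cox7b and Cox5b the outlying value came from the much dimmer probe set.

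Of the subunits encoded in mitochondrial DNA, 10 were measured. Their median difference was 0.02, and none had an unadjusted p under 0.05, beside 17.1% of all genes. ND3, with the smallest p, read 12.31, 12.26 and 12.27 against 12.21, 12.21 and 12.15 (0.09 ± 0.06, limma adjusted p = 0.527).

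Assembly factors other than the Ndufaf genes were measured for all complexes. Of 37, 31 lay above 0 (beside 53.0% of all genes), the median was 0.09, and none passed the adjusted p. Earlier results of these data were known when this list was chosen, so the share above 0 only describes it. Sdhaf1, which helps to insert iron-sulfur clusters into Sdhb, read 7.02, 6.89 and 7.11 with icilin and 6.71, 6.76 and 6.73 with vehicle (0.28 ± 0.08, limma adjusted p = 0.125). With all its probe sets averaged the difference was 0.22 (limma adjusted p = 0.206). The other members with an unadjusted p under 0.05, named after their values were seen, were Ttc19 of complex III assembly (0.24) and Coa5 of complex IV assembly (0.21).

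Among 21 measured regulators of mitochondrial biogenesis, 3 were higher at an adjusted p under 0.1 (beside 2.27% of all genes) and none was lower. All 3 were short of 1.5-fold, and the median of the list was 0.06. The list was chosen with earlier results of these data known, so its share only describes it. Tfam, which packs and transcribes mitochondrial DNA, read 7.31, 7.42 and 7.37 with icilin and 7.02, 6.95 and 6.90 with vehicle. The groups were far apart for their spread (0.41 ± 0.07, limma adjusted p = 0.0239; 0.0544 to 0.0999 with 1 array left out). Gabpb1, the partner of the ETS factor GABPA, read 7.31, 7.23 and 7.22 against 6.91, 6.81 and 6.92 (0.37 ± 0.07, limma adjusted p = 0.0316; up to 0.123 with 1 array left out, the adjusted p under 0.1 ending without icilin array 1, icilin array 2 or vehicle array 2). Pprc1, a coactivator related to PGC-1alpha, differed by 0.30 ± 0.06 (limma adjusted p = 0.0536; up to 0.167 with 1 array left out, and under 0.1 only without vehicle array 1). The factors themselves differed less, Gabpa by 0.06 and Nrf1 by 0.04.

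Of the genes around the chain, Pcx, Bnip3 and Mxi1 fell by at least 1.5-fold and none rose by as much. Pcx, pyruvate carboxylase, which makes oxaloacetate for the citrate cycle, read 6.16, 6.43 and 6.58 with icilin and 7.40, 7.58 and 7.59 with vehicle. It was 1 of 20 measured pyruvate and citrate cycle genes to pass the adjusted p, a share near the 5.28% of all genes, at -1.14 ± 0.12 (SE; limma adjusted p = 0.00424), and the vehicle level was 2.20-fold the icilin level. The median of those 20 genes was 0.01.

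Of 11 measured hypoxia-regulated mitochondrial genes, 5 were lower at an adjusted p under 0.1 (beside 3.00% of all genes), none was higher, and the median was -0.29. As this list was chosen with earlier results of these data known, its share only describes it and is not independent evidence. Bnip3, a mitophagy receptor, read 7.70, 7.66 and 7.72 against 8.60, 8.68 and 8.78, and fell by 0.99 on the log2 scale (SE 0.07; limma adjusted p = 0.00109). Mxi1, a repressor that opposes Myc and is known to restrain mitochondrial biogenesis, read 7.86, 7.78 and 7.82 against 8.62, 8.65 and 8.51, and fell by 0.77 (SE 0.07; limma adjusted p = 0.00251). The other 3 were short of 1.5-fold: Fam162a (-0.43, limma adjusted p = 0.0273), and, named after their values were seen, Pdk1 (-0.33, 0.0289), the kinase that shuts off pyruvate dehydrogenase, and the protease Lonp1 (-0.29, 0.0522). For these 3 the adjusted p reached 0.108, 0.112 and 0.173 with 1 array left out. Fam162a passed 0.1 without icilin array 1, icilin array 2 or vehicle array 2. Pdk1 did so without any 1 icilin array or without vehicle array 2, and also with all its probe sets averaged (-0.18, limma adjusted p = 0.247), and Lonp1 without any 1 of the 6 arrays. The 2 members of the list that belong to complex IV, Cox4i2 and Ndufa4l2, were given above and did not pass.

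The remaining lists held no gene at an adjusted p under 0.1. Among 8 measured genes of electron entry outside complexes I and II, Etfb, a subunit of the flavoprotein that brings electrons from fatty acid oxidation, read 7.90, 7.72 and 7.80 against 8.07, 8.10 and 8.06 (-0.27 ± 0.07, limma adjusted p = 0.107). Vdac1, the outer membrane channel, was the lowest of 8 measured carriers and channels (-0.21 ± 0.06, limma adjusted p = 0.137). Higd2a, a factor of supercomplex formation, had the smallest p of 12 cristae and supercomplex genes (-0.28 ± 0.11, limma adjusted p = 0.250).

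**Figure D4:**
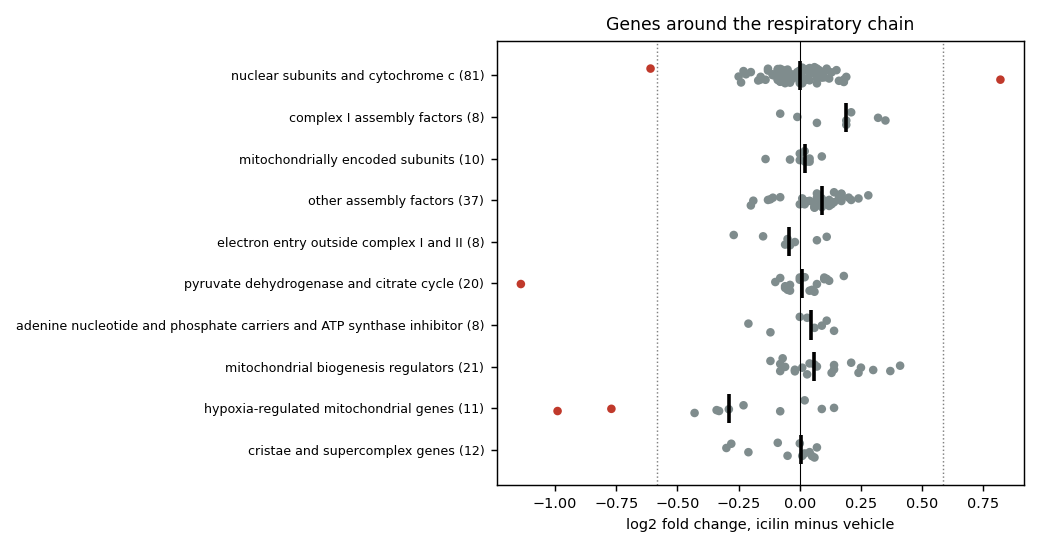
Log2 difference, icilin minus vehicle, of each measured gene (points) in the respiratory chain and in the lists around it, with the number of genes in brackets; black bars are medians, red points passed an adjusted p under 0.1 and 1.5-fold, and dotted lines mark 1.5-fold. The medians run from -0.29 for hypoxia-regulated mitochondrial genes to 0.19 for complex I assembly factors, and the red points are Ndufv3, Cox6a2, Pcx, Bnip3 and Mxi1.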

How the data were processed

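The deposited value table holds log2 values for 41345 probe sets on 6 Affymetrix Mouse Gene 2.0 ST arrays, which the authors made with RMA (which corrects background, scales arrays to each other and combines probes), per the series design text and the submitters' processing notes. No such step was redone. Array medians were 4.24 to 4.30. RMA makes arrays alike and compresses changes of dim genes. The number of arrays limits precision.

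The array annotation gave 1 gene symbol to 23521 probe sets, several to 1814 and none to 16010. The first kind was used, with the brightest probe set of a gene over the 6 arrays, which left 22180 genes. The 89 genes lay on 102 probe sets, and Atp5s and 2 pseudogenes were left out. Promoter windows and neighbouring genes came from RefSeq (GRCm38.p6).

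Differences were fitted over all genes with limma 3.58.1 in R 4.3.3 (lmFit, eBayes, two-sided; 4 residual and 3.07 prior degrees of freedom), without pairing, with Benjamini-Hochberg adjustment over all 22180 genes. A gene was called at an adjusted p under 0.1 and at least 1.5-fold, the limits in the design text. Errors are SE from limma unless stated. The fit was tested on simulated data. Lists are described by counts and medians, with no set test. A summed log2 level is log2 of the sum of unlogged values.

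Genes named are members at an adjusted p under 0.1; in each complex the brightest, the smallest p and both extremes; isoforms with their partners; and from each list up to 3 genes at an adjusted p under 0.1, or otherwise the smallest p. A few more, chosen after their values were seen, are given for their role in a complex or list. The members and lists were chosen with earlier results of these data known. The labels give replicate numbers but do not tie them to mice, and arrays of the same number did not deviate together (correlations over all genes -0.005, -0.014 and -0.022). Alternatives were the replicate block, a variance trend, other scalings, probe set and gene filters, SAM, call limits and each array left out. Counts were made with pandas 2.3.3 and numpy 2.4.6 in Python 3.11.15, and figures with matplotlib 3.10.9.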

Additional observations from a re-analysis of the deposited data

How the results depend on the processing

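No named gene that was called in the main fit reversed under any alternative run. Small differences that were not called could change sign. With 1 array left out, Cox4i2 ran from -0.22 to 0.04 and Atp5g1 from -0.13 to 0.11. Of the 2 members called, 1 remained with the replicate number as a block (Ndufv3, limma adjusted p = 0.0437; Cox6a2 was 0.107) and 1 with arrays centred on their median (Ndufv3 was -0.58 there). With 1 array left out, 0 to 2 were called. The count at an adjusted p under 0.1 at any fold, 3 members, was 1 with the block, 7 with an intensity trend and robust variances, 9 without genes dimmer than the median (Ndufaf2, Uqcrh and Atp5d passed in both of these), and 1 to 3 with 1 array left out. Cox6a2, 1 of the 9, was kept by the filter on dim genes only through its icilin arrays (vehicle mean 4.39, median gene 4.57). With arrays centred on their median, the median difference was 0.01 for complex II, 0.03 for complex III and 0.01 for complex IV. With quantile normalization it was -0.05 for complex II and -0.03 for complex III. With 1 array left out, the medians ran from -0.03 to 0.02 over all members, -0.03 to 0.01 for complex III, -0.04 to 0.04 for complex IV and -0.04 to 0.02 for complex V. That of the complex I assembly factors was 0.18 to 0.22 under the other alternatives. Over all genes, 311 were called, 283 with the block, 1170 with the fold limit dropped and 734 with it dropped at an adjusted p of 0.05. SAM called the same 2 members. The block also ended the adjusted p under 0.1 of Ndufaf4 (0.168), Tfam (0.109), Gabpb1 (0.113), Pprc1 (0.168), Fam162a (0.114), Pdk1 (0.125) and Lonp1 (0.170). The dimmer probe set of Atp5d was chosen after seeing the data. The cause of these shifts was not tested. Genes below the median level, 6 of the 89, have little signal over background, and a change in them could be missed.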
